A study of Mus musculus with 7 samples.

Results

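Integrins, laminins and the proteins that join them are 41 of the 23235 gene symbols in the deposited tables: 18 integrin alpha subunits, 8 integrin beta subunits, 11 laminin chains, the nidogens Nid1 and Nid2, and the heparan sulfate proteoglycans Hspg2 (perlecan) and Agrn (agrin). They were chosen by gene symbol, without regard to their levels. Poly-A RNA was sequenced in 7 libraries of cultured fetal mouse kidney of strain C57BL/6. In 3 libraries beta-catenin was activated and E2-2 deleted, and in 4 beta-catenin was activated and E2-2 was wildtype, so all 7 share the activated beta-catenin, which carries the canonical Wnt signal. Kidneys were taken at 10.5 days post coitum from mice injected with tamoxifen on that day, at 2 mg per 40 g of body weight, and cultured for 3 to 4 days. The cultures held transferrin, insulin and selenium, at the same concentrations for all 7 libraries. The labels name no Cre driver, no deleted exon and no allele of beta-catenin, and do not say whether each library is a separate animal, so the spread behind each p-value may be technical. E2-2, encoded by Tcf4, is one of the E proteins, DNA-binding factors that act as dimers, and the comparison asks what its deletion alters where beta-catenin is already active.

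An integrin is an alpha and a beta subunit joined across the cell membrane, which binds the extracellular matrix outside and the actin cytoskeleton inside. A laminin is a trimer of an alpha, a beta and a gamma chain. It binds integrins at the cell surface and polymerises into the sheet of the basement membrane, to which nidogen joins the collagen IV network and which perlecan and agrin also bind. In the developing kidney, integrin alpha8 of the mesenchyme binds nephronectin of the ureteric bud and is needed for the bud to grow in, and laminin chains change as tubules and glomeruli mature, with Lama5 and Lamb2 taking the place of Lama1 and Lamb1 in the glomerular basement membrane.

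Levels are given in FPKM, fragment counts scaled for transcript length and sequencing depth, which can therefore be compared between genes. Differences are E2-2 deleted minus E2-2 wildtype on the log2(FPKM + 1) scale, so that changes of genes at low FPKM are understated. The depth inferred from the deposited intervals was 17.7 to 24.9 M fragments in the deleted libraries and 14.6 to 26.6 M in the wildtype libraries. Deleted replicate 2 stood apart in its kidney markers: 9 nephron progenitor markers summed to 354, 78.0 and 239 FPKM in deleted replicates 1 to 3, against 192 to 410 FPKM in the wildtype libraries, and Six2, the defining progenitor factor, was at 2.69 FPKM there. Wildtype replicate 3 had the lowest sum of 10 ureteric bud markers, 126 FPKM, against 204 to 384 FPKM in the deleted libraries and 303 to 420 FPKM in the other wildtype libraries. Tcf4 itself was at 33.5, 41.7 and 42.0 FPKM in the deleted libraries and 48.8, 58.1, 28.7 and 39.2 FPKM in the wildtype libraries. Ctnnb1, the beta-catenin gene, was at 512, 636 and 579 FPKM in the deleted libraries. In the wildtype libraries it was at 511, 507, 415 and 408 FPKM. Its deleted libraries all lay above its wildtype libraries, as in 2.84% of all genes tested. The difference of Ctnnb1 was 0.33 (SE 0.18, limma adjusted p = 0.795). A whole-gene FPKM can miss the loss of some exons, so Tcf4 does not check the genotype. In bulk RNA, fewer cells of a type and less RNA per cell cannot be told apart.

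Levels of the 41 genes ranged widely. Averaged over the 7 libraries, 16 genes reached 20 FPKM or more, 8 lay from 5 to under 20 FPKM, 11 from 1 to under 5 FPKM, and 6 under 1 FPKM. The 35 genes at or above 1 FPKM were tested. Itgb1 stood highest, and the most abundant matrix genes were Nid1, Lamc1, Lamb1 and Agrn. Genes under 1 FPKM were the leukocyte subunits Itgad, Itgae, Itgal and Itgax, the lymphocyte subunit Itgb7, and the platelet subunit Itga2b.

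**Figure D1:**
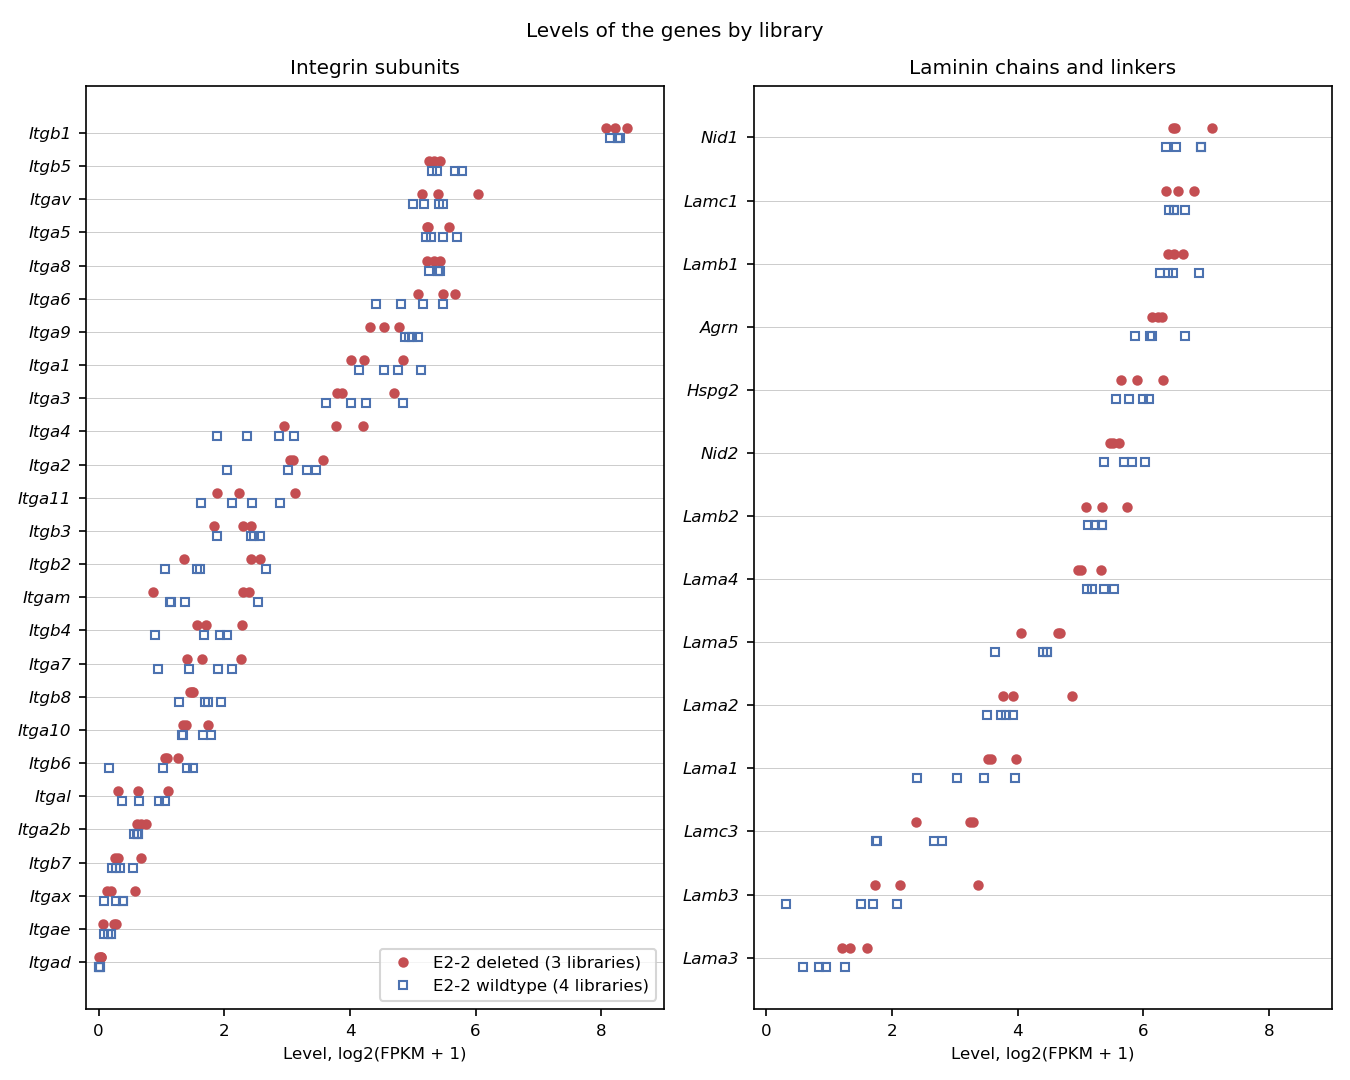
Level of 40 of the 41 genes in every library, as log2(FPKM + 1), with integrins on the left and laminins and linkers on the right, ordered by mean. Each filled circle is 1 of 3 E2-2 deleted libraries and each open square 1 of 4 E2-2 wildtype libraries; Itgb1 lies highest, and the libraries of the genotypes overlap in every tested gene drawn except Itga9.

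By limma with Benjamini-Hochberg adjustment, 0 of the 35 tested genes passed an adjusted p of 0.05, as did 0 of all 13469 genes tested (0%). At an unadjusted p under 0.05, 2 of the 35 genes stood out, where 4.49% of all genes did. Of these, 1 was higher in the deleted libraries (Itga4), where 3.29% of all genes were, and 1 was lower (Itga9), where 1.2% of all genes were. The count of higher genes was 0 without deleted replicate 2, 4 without wildtype replicate 2 and 2 without deleted replicate 1, deleted replicate 3 or wildtype replicate 1, and that of lower genes was 2 without wildtype replicate 4. Of the 13469 genes, 605 had such a p in either direction with all libraries. That count was 250 without deleted replicate 2, 745 without wildtype replicate 2 and 1473 without deleted replicate 1. It was 556 without deleted replicate 3, 589 without wildtype replicate 1 and 336 without wildtype replicate 4. The genotypes did not overlap, with deleted above wildtype, in 0 of the 35 genes (2.84% of all genes), and with deleted below wildtype in 1 (2.05% of all genes). The difference was positive in 21 of the 35, where 39.3% of all genes had a positive difference, and the median was 0.10, against -0.05 over all genes tested. Without deleted replicate 2 these were 17 of 35 with a median of -0.00, against 53.3% and 0.01 over all genes. With a weight per library they were 12 of 35 with a median of -0.035, against 50.5% and 0.0014 over all genes, and with median-of-ratios scaling 24 of 35, against 48.9% of all genes. Deleted replicate 2 was the highest library for 16 of the 35 genes and the lowest for 2, while it was the highest for 17.2% and the lowest for 44.4% of all genes tested. Within the file name prefixes BI and BM, whose meaning the labels do not give, 12 of the 35 differences had opposite signs. The mean difference over all genes tested also changed sign, from -0.06 within BI to 0.08 within BM. The share of all genes with opposite signs was not computed, so this count has no background beside it.

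**Figure D2:**
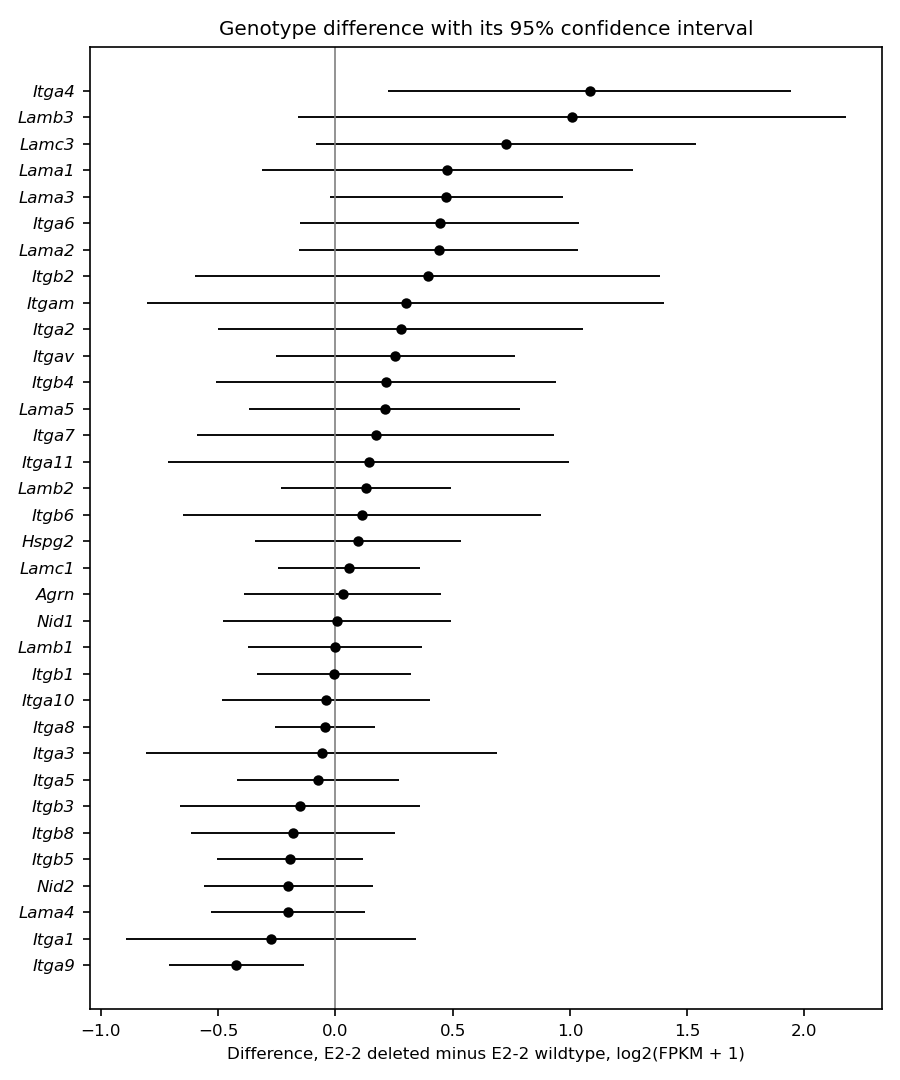
Difference between genotypes (E2-2 deleted minus E2-2 wildtype, log2 scale of FPKM + 1) for 34 of the 35 tested genes, as points with 95% confidence intervals from limma, not adjusted for the number of genes. The interval excludes 0 for 2 genes, Itga4 at 1.08 and Itga9 at -0.42.

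The alpha4 and alpha9 integrin subunits form a family of their own, pair with beta1 and share ligands such as VCAM-1 and an alternatively spliced segment of fibronectin. These genes carried the lowest unadjusted limma p-values of the 35 tested genes, with opposite signs. A window around an annotated transcription start of each is shown because E2-2 belongs to the E proteins, which bind the E-box CANNTG. They are RefSeq promoters of build GRCm38.p6, from 250 bases before to 50 bases after the start. The Itga9 window is at chr9:118711442-118711741 and the Itga4 window at chr2:79255176-79255475, both on the plus strand. The Itga4 window surrounds the 5′ end of the RefSeq gene. The Itga9 window surrounds an internal start, 104983 bases into the RefSeq gene, and the sequence at the 5′ end of Itga9 is not analysed here. The deposited entry of Itga9 lists 2 starts, so its FPKM does not tell them apart. E-boxes are in capitals.
Itga9: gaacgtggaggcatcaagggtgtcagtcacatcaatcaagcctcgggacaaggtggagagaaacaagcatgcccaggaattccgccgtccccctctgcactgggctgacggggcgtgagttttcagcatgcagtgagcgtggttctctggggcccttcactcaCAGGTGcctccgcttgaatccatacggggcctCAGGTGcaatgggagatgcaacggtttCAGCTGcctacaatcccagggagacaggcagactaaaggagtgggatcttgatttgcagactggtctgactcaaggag
Itga4: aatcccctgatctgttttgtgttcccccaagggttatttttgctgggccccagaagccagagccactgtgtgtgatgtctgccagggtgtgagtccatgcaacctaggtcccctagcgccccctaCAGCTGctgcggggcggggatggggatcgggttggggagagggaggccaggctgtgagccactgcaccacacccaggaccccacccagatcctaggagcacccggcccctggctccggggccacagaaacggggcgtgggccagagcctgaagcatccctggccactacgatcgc

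The Itga9 window held 3 E-boxes, 2 of the form CAGGTG and 1 palindromic. The Itga4 window held 1, the palindromic form. CANNTG reads as an E-box on either strand and occurred in 72.3% of all 32851 promoter windows of this length, and at least 3 times in 17.6%. CAGGTG, on either strand, occurred in 20.2% of windows. The palindromic form, CAGCTG, occurred in 16.3%. Neither window held CTTTGA, a core of TCF/LEF sites, on either strand, which occurred in 16% of all windows. The variant CTTTGT, present in 18.7% of all windows, was also without a match in both. Of the 41 genes, 26 had a window in the table, 19 of them within 100 bases of the 5′ end of the RefSeq gene. At least 1 E-box was in a window of 20 of the 26 genes, and at least 3 in a window of 4. Some genes have more than 1 window and count if any matches, so these counts are not in the same unit as the shares of single windows. A match is only a match of letters, and no binding was measured.

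Itga9 (chromosome 9, 118515826 to 118810121 in the deposited tables, whose genome build is not given in the sources used here) had all 3 deleted libraries below all 4 wildtype libraries. It was at 26.6, 19.1 and 22.2 FPKM in the deleted libraries, against 28.2, 29.7, 33.0 and 30.8 FPKM in the wildtype libraries. The means were 22.6 ± 3.77 FPKM in deleted libraries (SD, n = 3) and 30.4 ± 2.00 FPKM in wildtype libraries (SD, n = 4). Deleted minus wildtype was -0.42 (SE 0.12, 95% interval -0.71 to -0.13; limma unadjusted p = 0.00975, adjusted p = 0.795). By the exact 2-sided permutation test over the 35 ways to assign the libraries, p was 0.0286, the smallest that test can give. Leaving out a library moved the difference between -0.54 (without deleted replicate 1) and -0.31 (without deleted replicate 2).

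Itga4 (chromosome 2, 79095582 to 79173271), the alpha subunit of the VCAM-1 receptor of blood cells, neural crest and mesenchyme, was at 6.69, 17.5 and 12.6 FPKM in the deleted libraries, against 7.59, 6.33, 4.15 and 2.71 FPKM in the wildtype libraries. Deleted replicates 2 and 3 lay above every wildtype library, and deleted replicate 1 lay below wildtype replicate 1. The means were 12.3 ± 5.43 FPKM in deleted libraries (SD, n = 3) and 5.20 ± 2.18 FPKM in wildtype libraries (SD, n = 4), a difference of 1.08 (SE 0.37, 95% confidence interval 0.23 to 1.94; limma unadjusted p = 0.0197, adjusted p = 0.795; exact permutation p = 0.114). It was 0.80 without deleted replicate 2 and 1.43 without deleted replicate 1, and within BI and BM it was 0.59 and 1.64. Beside it, markers of leukocytes and macrophages summed to 248, 484 and 570 FPKM in the deleted libraries and 395, 268, 702 and 223 FPKM in the wildtype libraries, and Schwann and glial markers to 17.0, 17.1 and 45.6 FPKM in the deleted libraries and 37.8, 19.6, 9.53 and 14.6 FPKM in the wildtype libraries. Deleted replicates 2 and 3, highest in Itga4, had leukocyte sums above all other libraries but wildtype replicate 3, and wildtype replicate 4 was lowest in both. Wildtype replicate 3, highest in the leukocyte sum and lowest in the Schwann and glial sum, was next to lowest in Itga4. Lyz2 alone gave 442 FPKM of the leukocyte sum of wildtype replicate 3, against 264 and 261 FPKM in deleted replicates 2 and 3. Not every marker followed the sum, and Cx3cr1 was lowest in deleted replicate 2. The part of these markers in the Itga4 values was not tested.

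The log2 ratio of Itga4 to Itga9 was -1.84, -0.11 and -0.76 in the deleted libraries, against -1.76, -2.07, -2.72 and -3.10 in the wildtype libraries. Deleted replicate 1 lay between wildtype replicates 1 and 2, so the groups overlapped. The difference was 1.51 (exact permutation p = 0.0857; 0.94 within BI and 2.15 within BM). The pair was chosen with earlier results of these data known, and the ratio combines values already given above.

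**Figure D3:**
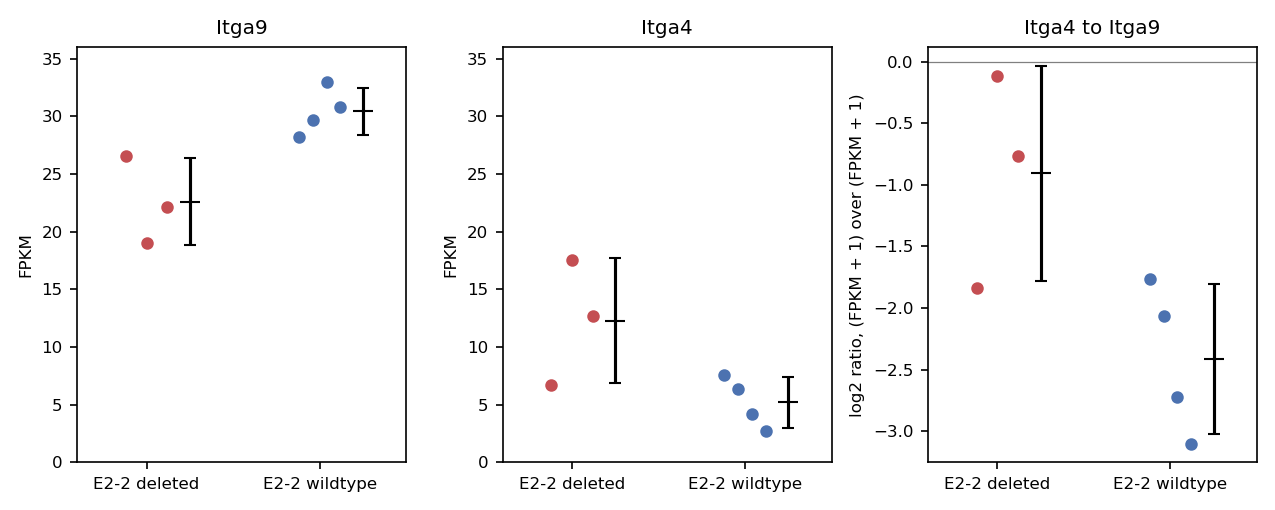
FPKM of Itga9 and Itga4 and the log2 ratio of Itga4 to Itga9 (each FPKM + 1), with 1 point per library (3 E2-2 deleted, 4 E2-2 wildtype, in order of replicate number) and the mean ± SD of each genotype beside them. All 3 deleted libraries lie below the wildtype libraries for Itga9, and deleted replicate 1 lies among them for Itga4.

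The RGD-binding alpha subunits, named for the tripeptide they recognise in fibronectin and other ligands, were among the abundant members. Itga8, the nephronectin receptor of the kidney mesenchyme, was at 42.1, 36.3 and 39.2 FPKM in the deleted libraries and 41.1, 41.3, 42.0 and 37.4 FPKM in the wildtype libraries. Its coefficient of variation over the 7 libraries was 5.84%, the lowest of the 35 tested genes, whose median was 23.8%, against 16.7% over all genes tested. It stood at 36.3 FPKM in deleted replicate 2, where Six2 was at 2.69 FPKM, against 28.98 to 74.8 FPKM of Six2 in the wildtype libraries. The difference of Itga8 was -0.04 (95% confidence interval -0.26 to 0.17; limma adjusted p = 0.895), and turned to 0.01 with median-of-ratios scaling, quantile normalization or without deleted replicate 2. Npnt, its ligand nephronectin, named after its values were seen, was at 41.4, 35.9 and 35.99 FPKM in deleted libraries against 33.6, 55.9, 14.96 and 47.5 FPKM in wildtype libraries, lowest in wildtype replicate 3.

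Itga5, the fibronectin receptor subunit, was at 36.4, 46.6 and 36.8 FPKM in the deleted libraries and 38.2, 50.9, 43.7 and 35.9 FPKM in the wildtype libraries. Itgav, which pairs with several beta subunits to bind vitronectin and latent TGF-beta, was at 34.4, 64.7 and 41.1 FPKM in deleted libraries against 31.2, 41.8, 43.5 and 35.3 FPKM in wildtype libraries. Only deleted replicate 2 exceeded the wildtype range of Itgav, and its difference of 0.25 (SE 0.22) was -0.00 without that library. Fn1, the fibronectin gene, also named after its values were seen, was highest in the same library, at 255, 664 and 262 FPKM in the deleted libraries and 253, 311, 384 and 209 FPKM in the wildtype libraries.

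Laminin-binding alpha subunits overlapped between the genotypes. Itga6, found on basal epithelium and endothelium, was at 32.8, 49.8 and 43.7 FPKM in the deleted libraries and 34.8, 43.5, 20.4 and 26.9 FPKM in the wildtype libraries. Its difference was 0.44 (SE 0.26; limma adjusted p = 0.795), with 0.06 within BI and 0.87 within BM, and it was 0.26 without wildtype replicate 3. Itga3, needed for glomerular and tubular basement membranes, ranged from 12.9 to 25.1 FPKM in the deleted libraries and 11.3 to 27.8 FPKM in the wildtype libraries. Itga7, the laminin receptor of muscle, ranged from 1.64 to 3.83 FPKM in deleted libraries and 0.93 to 3.37 FPKM in wildtype libraries.

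Among the collagen-binding subunits, Itga1 was at 15.3, 27.7 and 17.7 FPKM in the deleted libraries and 22.2, 33.9, 26.0 and 16.7 FPKM in the wildtype libraries, a difference of -0.28 (SE 0.27; limma adjusted p = 0.799). Itga2, Itga11 and Itga10 had means of 8.56, 4.69 and 1.83 FPKM in the deleted libraries and 7.29, 4.07 and 1.91 FPKM in the wildtype libraries, and their ranges overlapped. The difference of Itga2 was 0.28 with all libraries and -0.03 without wildtype replicate 3, in which it was at 3.13 FPKM.

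Itgb1, the shared partner of most of these alpha subunits, made up 85.0 ± 1.46% of the summed FPKM of the 8 beta subunits in the deleted libraries (SD, n = 3) and 83.8 ± 1.88% in the wildtype libraries (SD, n = 4). It was at 269, 339 and 296 FPKM in the deleted libraries and 306, 306, 313 and 282 FPKM in the wildtype libraries, and the groups overlapped. Its difference was -0.00 (95% confidence interval -0.33 to 0.32; limma adjusted p = 0.991), with 0.05 under median-of-ratios scaling and 0.13 under quantile normalization. Itgb5, a partner of alphav, was at 42.0, 39.2 and 37.4 FPKM in deleted libraries against 38.5, 53.8, 49.7 and 40.9 FPKM in wildtype libraries, a difference of -0.19 (SE 0.13). Itgb3, Itgb8, Itgb4 and Itgb6 were each under 5 FPKM in every library. Itgb4, the hemidesmosome partner of alpha6, and Itgb6, an epithelial partner of alphav, were lowest in wildtype replicate 3, at 0.87 and 0.12 FPKM. That library had the lowest sum of ureteric bud markers. Of these markers, Wnt9b, Calb1 and Hoxb7 were lowest in deleted replicate 2, Wnt11 in wildtype replicate 2, and the others in wildtype replicate 3.

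The leukocyte integrin Itgam with its partner Itgb2, the receptor of macrophages and neutrophils, was high in the libraries with high macrophage markers. Itgb2 was at 1.56, 4.37 and 4.95 FPKM in the deleted libraries and 2.05, 1.96, 5.35 and 1.09 FPKM in the wildtype libraries. Itgam was at 0.82, 4.24 and 3.90 FPKM in deleted libraries against 1.60, 1.19, 4.80 and 1.23 FPKM in wildtype libraries. The same 3 libraries, deleted replicates 2 and 3 and wildtype replicate 3, had the highest sums of the 12 leukocyte and macrophage markers. Of these 12 markers, 11 had a positive difference, where 39.3% of all genes did. By limma, 0 had an unadjusted p under 0.05, where 4.49% of all genes did. The difference of their mean log2 level was -0.06 within BI and 0.61 within BM. The differences of Itgb2 and Itgam were 0.39 (SE 0.43) and 0.30 (SE 0.48), within the spread between replicates. The other leukocyte alpha subunits had means under 1 FPKM, and Itgad rested on at most 2 inferred fragments in any library. Itga2b, which marks platelets and megakaryocytes, was at 0.53, 0.59 and 0.68 FPKM in deleted libraries against 0.55, 0.55, 0.48 and 0.53 FPKM in wildtype libraries, where 26 to 54 inferred fragments per library limit the precision. Of 8 platelet markers, Gp6 was listed at 0 in every library, and Gp9 at 0 in deleted replicate 1 and in every wildtype library. Pf4, the highest of the 8, was at 3.59, 9.83 and 8.92 FPKM in deleted libraries. In wildtype libraries Pf4 was at 3.55, 2.61, 7.04 and 2.90 FPKM. The 8 markers summed to 5.92 to 12.9 FPKM in deleted libraries and 4.69 to 9.62 FPKM in wildtype libraries. Of the 8, 6 had a mean under 1 FPKM.

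**Figure D4:**
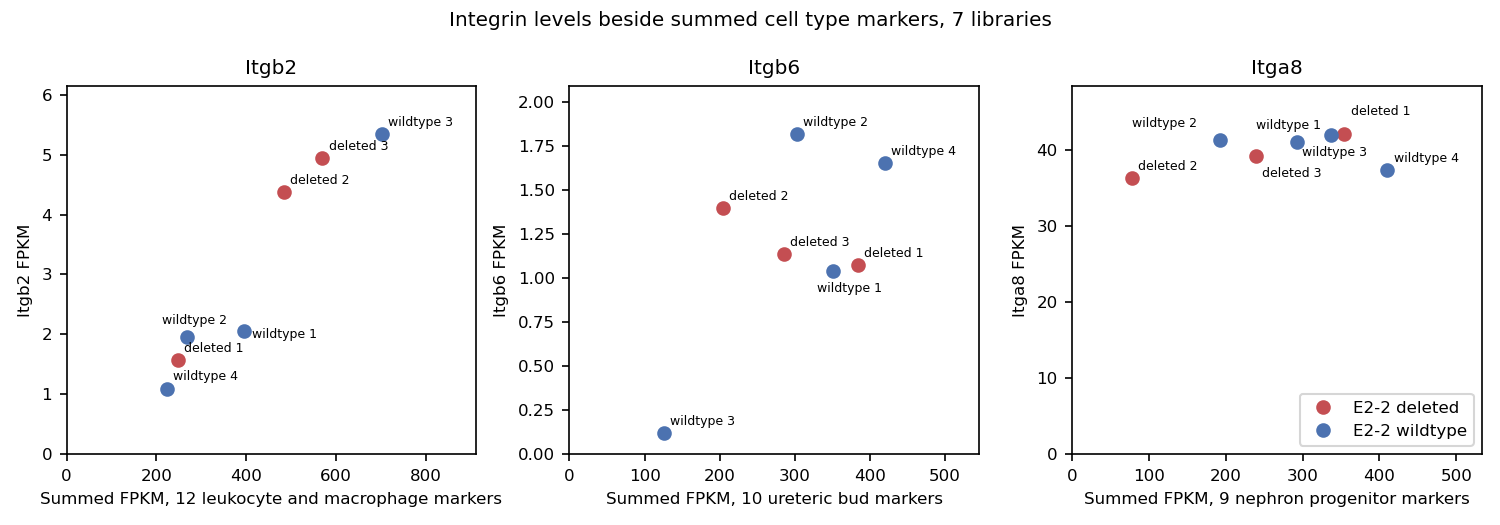
FPKM of Itgb2, Itgb6 and Itga8 (vertical) against the summed FPKM of cell type markers (horizontal), with 1 labelled point per library, E2-2 deleted in red and E2-2 wildtype in blue. Itgb2 is highest in the 3 libraries with the most leukocyte markers, Itgb6 is lowest in wildtype replicate 3, and Itga8 stays between 36.3 and 42.1 FPKM while progenitor markers range from 78.0 to 410 FPKM.

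Lamc1 and Lamb1 were the most abundant laminin chains in both genotypes, each above every alpha chain in all 7 libraries. All 11 chains summed to a log2 level of 8.33, 8.60 and 8.21 in the deleted libraries, against 8.25, 8.55, 8.12 and 8.24 in the wildtype libraries, a difference of 0.09 (exact permutation p = 0.514) that was -0.02 without deleted replicate 2. Lamc1, the gamma chain of most laminins, was at 92.2, 111 and 81.5 FPKM in the deleted libraries and 84.1, 101, 89.1 and 88.4 FPKM in the wildtype libraries.

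Among the alpha chains, Lama4, a chain of vessels and mesenchyme, was the most abundant, at 30.0, 31.1 and 38.9 FPKM in the deleted libraries and 40.6, 45.1, 35.1 and 33.2 FPKM in the wildtype libraries. It was 39.2 ± 9.36% of the alpha chain FPKM in the deleted libraries (SD, n = 3) and 48.9 ± 4.36% in the wildtype libraries (SD, n = 4), and its difference was -0.20 (SE 0.14; limma adjusted p = 0.795). The difference was -0.48 within BI and 0.18 within BM. Endothelial markers summed to 391, 313 and 461 FPKM in the deleted libraries and 529, 513, 229 and 326 FPKM in the wildtype libraries, and their part in the Lama4 values was not tested. Lama2, the chain of muscle and mesenchyme, was at 28.0 FPKM in deleted replicate 2 and from 10.4 to 14.3 FPKM in the other 6 libraries. Its difference of 0.44 (SE 0.26) was 0.10 without that library.

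Lama1 and Lama5, the early and the later chain of kidney epithelium, had overlapping levels and an overlapping ratio in the genotypes. Lama1 was at 10.9, 14.6 and 10.5 FPKM in the deleted libraries and 7.19, 14.6, 4.24 and 10.04 FPKM in the wildtype libraries, and Lama5 at 23.8, 24.5 and 15.5 FPKM in deleted libraries against 21.0, 21.2, 11.4 and 20.2 FPKM in wildtype libraries. The log2 ratio of Lama5 to Lama1 was 0.76 ± 0.27 in deleted libraries (SD, n = 3) and 1.03 ± 0.40 in wildtype libraries (SD, n = 4), a difference of -0.27 (exact permutation p = 0.371). Both chains were lowest in wildtype replicate 3.

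Lamb1, the widespread beta chain, was at 88.7, 98.4 and 83.1 FPKM in the deleted libraries and 82.7, 118, 76.2 and 88.1 FPKM in the wildtype libraries. Lamb2, the beta chain of the mature glomerular basement membrane and of synapses, was at 39.4, 52.3 and 33.0 FPKM in deleted libraries against 36.4, 39.5, 39.3 and 33.9 FPKM in wildtype libraries. The log2 ratio of Lamb2 to Lamb1 was -1.12 ± 0.21 in deleted libraries (SD, n = 3) and -1.25 ± 0.26 in wildtype libraries (SD, n = 4), a difference of 0.13 (exact permutation p = 0.457). It was 0.02 without deleted replicate 2, and 0.33 within BI against -0.16 within BM. Podocyte markers, which belong to the cells of that membrane, summed to 57.1, 75.8 and 55.5 FPKM in the deleted libraries and 49.2, 118, 43.3 and 45.4 FPKM in the wildtype libraries.

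Lama3 and Lamb3 are chains of the laminin of hemidesmosomes in stratified epithelium, and neither passed the threshold. Lama3 was at 1.51, 2.05 and 1.31 FPKM in the deleted libraries and 0.94, 1.38, 0.50 and 0.80 FPKM in the wildtype libraries, a difference of 0.47 (SE 0.21; limma unadjusted p = 0.0588, adjusted p = 0.795; exact permutation p = 0.0857). Its deleted replicate 3 lay just below wildtype replicate 2. Lamb3 was at 3.37, 9.30 and 2.31 FPKM in deleted libraries against 2.25, 3.21, 0.25 and 1.84 FPKM in wildtype libraries, a difference of 1.01 (SE 0.50) that was 0.53 without deleted replicate 2. With the widest spread of the 35 tested genes (coefficient of variation 89.3%), it was lowest in wildtype replicate 3. Stratified epithelium markers summed to 3.17, 12.0 and 6.06 FPKM in the deleted libraries and 2.86, 6.32, 1.47 and 2.57 FPKM in the wildtype libraries, highest and lowest in the same libraries as Lamb3, and 5 of their 6 genes had a mean under 1 FPKM. Their part in the Lamb3 values was not tested.

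Lamc3, a gamma chain described in skin, nerve and brain basement membranes, was at 4.19, 8.77 and 8.45 FPKM in the deleted libraries and 5.93, 5.33, 2.39 and 2.35 FPKM in the wildtype libraries. Deleted replicates 2 and 3 lay above every wildtype library and deleted replicate 1 did not. The difference was 0.73 (SE 0.35; limma unadjusted p = 0.0717, adjusted p = 0.795), with 0.11 within BI and 1.49 within BM.

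**Figure D5:**
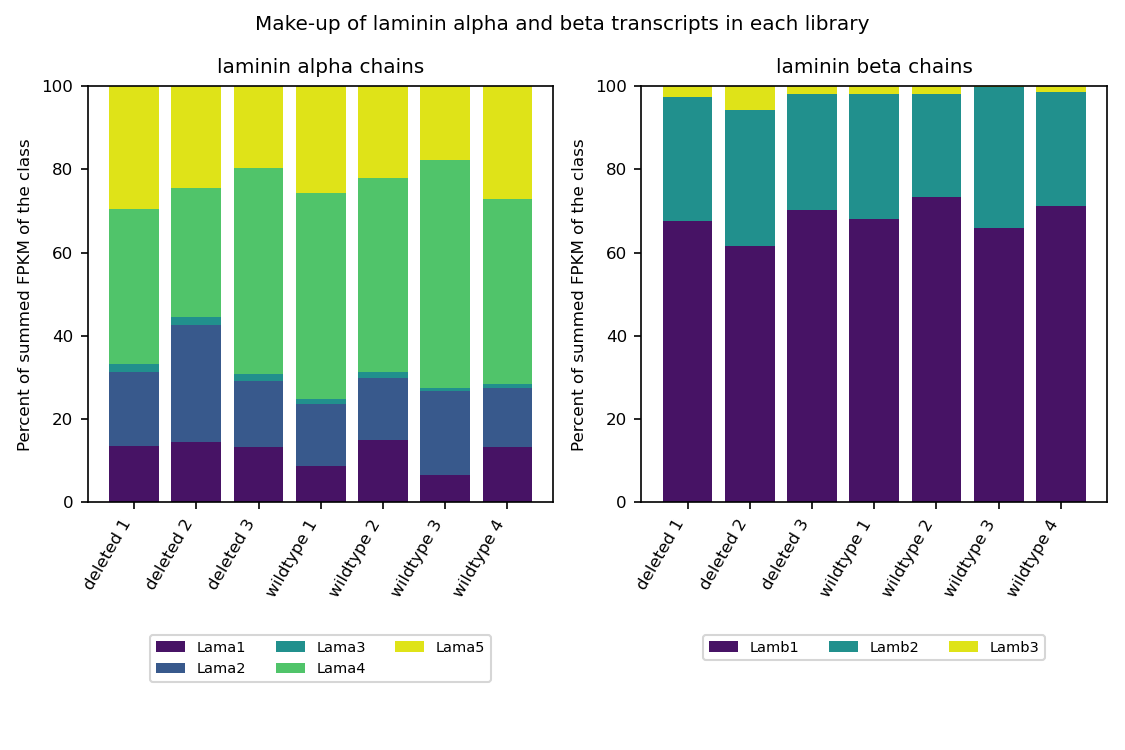
Share of each chain in the summed FPKM of the laminin alpha chains and of the beta chains, 1 stacked bar per library, E2-2 deleted on the left of each panel and E2-2 wildtype on the right. Lama4 and Lamb1 take the largest average shares in both genotypes, and Lama2 takes 27.9% of the alpha chains in deleted replicate 2.

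Genes that tie laminin to the rest of the basement membrane were abundant in every library. Nid1 was at 87.7, 135 and 89.2 FPKM in the deleted libraries and 90.6, 120, 120 and 81.0 FPKM in the wildtype libraries, a difference of 0.01 (95% confidence interval -0.48 to 0.49). Nid2 was at 47.9, 44.6 and 43.0 FPKM in deleted libraries against 50.8, 55.5, 64.4 and 40.3 FPKM in wildtype libraries, a difference of -0.20 (SE 0.16). The proteoglycan gene Agrn was at 77.4, 74.1 and 69.2 FPKM in deleted libraries against 69.3, 99.8, 57.0 and 67.7 FPKM in wildtype libraries. Hspg2 was at 58.5, 78.0 and 48.9 FPKM in deleted libraries against 63.0, 66.7, 46.1 and 53.3 FPKM in wildtype libraries. The groups overlapped in all 4 genes, and none passed the threshold (limma adjusted p = 0.795 to 0.992).

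Of the partner genes outside the 41, in 4 lists, limma passed 0 at an adjusted p of 0.05. Over all genes tested, 39.3% had a positive difference, 4.49% an unadjusted p under 0.05, and the median was -0.05. Of 22 adaptors that link integrins to actin or signal from them, 13 had a positive difference, 0 an unadjusted p under 0.05, and the median was 0.02, or -0.085 without deleted replicate 2. The smallest p were those of Tln2, a talin that activates integrins, at 11.7 ± 3.34 FPKM in deleted libraries (SD, n = 3) against 8.69 ± 1.26 FPKM in wildtype libraries (SD, n = 4), and of Cd151, a tetraspanin of laminin-binding integrins, at 72.2 ± 4.64 FPKM in deleted libraries against 81.0 ± 4.67 FPKM in wildtype libraries. Actn4, an alpha-actinin of podocytes and other cells, was the most abundant, at 156 ± 26.7 FPKM in deleted libraries against 162 ± 17.7 FPKM in wildtype libraries. Of 14 other integrin ligands tested, 11 had a positive difference, 0 an unadjusted p under 0.05, and the median was 0.04, or -0.11 without deleted replicate 2. Frem2, of the Fras1 complex that guides ureteric bud outgrowth, was at 20.5 ± 3.20 FPKM in deleted libraries against 15.1 ± 4.38 FPKM in wildtype libraries. Ctgf, a matricellular protein, was at 122 ± 44.1 FPKM in deleted libraries against 176 ± 90.3 FPKM in wildtype libraries. Spp1, osteopontin, was at 543 ± 155 FPKM in deleted libraries against 533 ± 146 FPKM in wildtype libraries.

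Of 17 other basement membrane genes, 10 had a positive difference and 1 an unadjusted p under 0.05, with a median of 0.06, or -0.028 without deleted replicate 2. That gene, Smoc1, a secreted calcium-binding protein of basement membranes, was at 1.96, 6.35 and 3.73 FPKM in the deleted libraries and 1.16, 1.70, 2.41 and 0.80 FPKM in the wildtype libraries, a difference of 0.94 (SE 0.34; limma unadjusted p = 0.026, adjusted p = 0.795) that was 0.61 without deleted replicate 2. Col4a5, a collagen IV chain of the glomerular basement membrane, was at 17.3 ± 1.73 FPKM in deleted libraries (SD, n = 3) against 14.6 ± 1.77 FPKM in wildtype libraries (SD, n = 4), and Sparc, a collagen-binding matrix protein, at 1114 ± 423 FPKM in deleted libraries against 898 ± 162 FPKM in wildtype libraries. Of 10 laminin receptors other than integrins, 5 had a positive difference and 1 an unadjusted p under 0.05, with a median of -0.04, or 0.085 with a weight per library. Sdc2, a syndecan of mesenchyme, averaged 65.7 ± 17.9 FPKM in the deleted libraries (SD, n = 3) and 45.5 ± 9.62 FPKM in the wildtype libraries (SD, n = 4), a difference of 0.51 (SE 0.22; limma unadjusted p = 0.0476, adjusted p = 0.795) that was 0.30 without deleted replicate 2. Sdc4, another syndecan, was at 30.4 ± 5.08 FPKM in deleted libraries against 37.4 ± 7.84 FPKM in wildtype libraries. Rpsa, a ribosomal protein also described as a laminin receptor, was at 240 ± 127 FPKM in deleted libraries against 306 ± 140 FPKM in wildtype libraries.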

How the data were processed

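Each library came as a gene table of FPKM values that the authors deposited, with interval bounds and a status for every entry, per the file headers. The submitters' processing notes list Cufflinks 2.0.2, TopHat2 2.0.4 and CASAVA 1.8.2 but give no roles. The genome build is not given in the sources used here, so gene coordinates are as deposited. In 1 table (deleted replicate 2) 25 symbols had become dates, and symbols were taken from another table with identical loci.

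Fragments were inferred from the interval as the square of 2 times the FPKM over its distance to the upper bound. Of these numbers, 78.9% to 80.2% lay within 0.05 of a whole number among genes of a single start and under 300 fragments.

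Entries of a symbol were summed. Symbols without a valid status in all 7 libraries or with a locus under 200 bases were left out, and the 13469 of 22363 genes with a mean of at least 1 FPKM were tested with limma 3.58.1 in R 4.3.3, as log2(FPKM + 1) with no further scaling or covariate, a mean-variance trend and Benjamini-Hochberg adjustment over all genes. Alternatives were a pseudocount of 0.1, no filter or a minimum of 5 FPKM, median-of-ratios scaling, quantile normalization, weights per library, the file name prefix as a term, the highest entry per symbol, and leaving out each library. The fit was tested on simulated data with known differences. Single values were compared by an exact 2-sided permutation test. Replicate numbers follow the order of deposit. Values per library are given for genes with a mean of at least 20 FPKM, an unadjusted p under 0.05 or the highest level of their role. Values per library of Lama1, Lama3, Lama5, Lamb3, Lamc3, Itgb2 and Itga2b were added after they were seen. From each partner list, the 2 genes of smallest p and the most abundant are named. Members and lists were chosen with earlier results of these data known. 1 member is counted but not reported here.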

Additional observations from a re-analysis of the deposited data

Results flagged for a closer look

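In the group of 4 wildtype libraries, 2 of 39 values examined had 1 library far from the rest by Dixon's test at 95%, where chance gives about 1 in 20. Itgam was at 4.80 FPKM in wildtype replicate 3, against 0.82, 4.24 and 3.90 FPKM in the deleted libraries and 1.19 to 1.60 FPKM in the other wildtype libraries. That library also had the highest sum of leukocyte and macrophage markers, 702 FPKM, of which Lyz2 gave 442 FPKM. Lama5 was at 11.4 FPKM in wildtype replicate 3, against 23.8, 24.5 and 15.5 FPKM in the deleted libraries and 20.2 to 21.2 FPKM in the other wildtype libraries. The sum of ureteric bud markers was lowest there, at 126 FPKM. The part of these markers in either value was not tested.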

How the results depend on the processing

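No paired analysis was possible because the labels give no replicate numbers shared between the genotypes. No gene passed an adjusted p of 0.05 by limma with all libraries and the stated filter, while 4 did with no filter and 1 with a weight per library. Of all genes, 605 had an unadjusted p under 0.05, 984 with no filter, 394 at a minimum of 5 FPKM, 1141 with library weights, and 250 (without deleted replicate 2) to 1473 (without deleted replicate 1) when a library was left out. The count of higher members was 2 of 41 with no filter, 2 of 35 with library weights, and 0 to 4 of 35 when a library was left out, and the lower count 1 to 2. Positive member differences numbered 12 of 35 with library weights (50.5% of all genes), 13 of 24 at a minimum of 5 FPKM (34.8% of all genes), and 17 to 26 of 35 when a library was left out (35.6% to 53.3% of all genes). The adaptors' median was 0.11 with quantile normalization, -0.050 with library weights and -0.085 to 0.11 when a library was left out. The ligands' median was 0.15 with quantile normalization and -0.016 with library weights, and that of other basement membrane genes -0.016 with library weights. The median of other laminin receptors was 0.085 with library weights, 0.015 with median-of-ratios scaling, 0.022 with quantile normalization, 0.017 at a minimum of 5 FPKM, and -0.074 to 0.011 when a library was left out. Differences that turned sign were, with the file name prefix as a term, -0.019 for Agrn and -0.021 for Nid1. Differences that turned sign were, with library weights, -0.028 for Agrn, -0.21 for Hspg2, -0.094 for Itga11, -0.053 for Itga7, -0.018 for Itgb6, -0.20 for Lama5, -0.072 for Lamb2, -0.060 for Lamc1, -0.068 for Nid1 and 0.34 for Rpsa. Differences that turned sign were, with median-of-ratios scaling, 0.0058 for Itga8, 0.047 for Itgb1 and 0.051 for Lamb1. Differences that turned sign were, with quantile normalization, 0.011 for Itga8, 0.13 for Itgb1, -0.023 for Itgb6, 0.068 for Lamb1 and 0.074 for Actn4. When a library was left out, those that turned sign ranged from -0.20 to 0.038 for Actn4, -0.76 to 0.071 for Rpsa, -0.028 to 0.44 for Sparc, -0.18 to 0.21 for Spp1, -0.30 to 0.030 for Tcf4, -0.079 to 0.19 for Agrn, -0.083 to 0.25 for Hspg2, -0.16 to 0.045 for Itga10, -0.21 to 0.41 for Itga11, -0.026 to 0.45 for Itga2, -0.35 to 0.16 for Itga3, -0.19 to 0.019 for Itga5, -0.079 to 0.36 for Itga7, -0.096 to 0.0085 for Itga8, -0.0013 to 0.45 for Itgav, -0.092 to 0.074 for Itgb1, -0.30 to 0.027 for Itgb3, -0.031 to 0.36 for Itgb4, -0.17 to 0.27 for Itgb6, -0.079 to 0.13 for Lamb1, -0.045 to 0.28 for Lamb2, -0.059 to 0.16 for Lamc1 and -0.19 to 0.11 for Nid1, and the summed laminins from -0.021 to 0.18. In all, 19 of 34 member differences turned sign under some setting and 15 under none, Itga9 and Itga4 among the 15. Both had the smallest unadjusted limma p of the members in the same libraries, so their kept sign adds no support. The share of all genes that turned sign was not computed. The cause of the turned signs was not tested. Depth limits members under 1 FPKM, of which Itgad rested on at most 2 inferred fragments in a library.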
